A study of Rattus norvegicus with 4 samples.

Results

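The cell cycle and proliferation genes of the Atlas Rat Array were 33 of its 1185 spots. A spot was a member when its gene name held a word of the division cycle, such as cyclin, cell division, topoisomerase, proliferating cell, DNA polymerase, retinoblastoma, myc or ornithine decarboxylase, which found 31 spots, or when it had 1 of 4 given codes. The codes were F14c (TOP2A), G31 (ODC), G29 (TUBA1) and E06n (PRMT1), and only TUBA1 and PRMT1 were not also found by a word. The list was selected on earlier results of the same arrays, in which the coded spots had high ratios of OE to control, so that the ratios of the members are a description, and a fit over all genes lends them no independent support. DNA polymerase found no spot. FRAP was found only because rapamycin contains the letters myc.

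All rats were female Wistar rats with an initial weight of 220 to 230 g, fed chow freely. The OE group received oleoyl-estrone (OE), the oleic acid ester of estrone, by stomach cannula for 2 days, each day 10 μmol/kg in 0.2 ml of sunflower oil, and the control group received the oil alone. Mesenteric white adipose tissue, the fat between the folds that hold the intestine, was taken at 48 h, and the RNA of 2 control rats and 2 OE rats was labelled with radioactive phosphorus and hybridized, 1 rat per nylon cDNA array. The arrays are called control 1, control 2, OE 1 and OE 2.

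A cell enters the division cycle when growth signals raise D-type cyclins, which switch on cyclin-dependent kinases and so release E2F factors from the retinoblastoma proteins. E2F factors then turn on the genes of DNA synthesis, and cyclin B1 with CDK1 starts mitosis. In adipose tissue mature fat cells do not divide, and dividing cells are found among the precursor, vessel and immune cells of the stroma.

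The adjusted intensity of a spot is its intensity minus the background of its array, in scanner units. A spot was called detected where this value reached 2 times the background, that is 120 on control 1, 108 on control 2 and 122 on both OE arrays. To compare arrays, values were scaled to the 50th percentile of each array and are then given in array medians. These medians were 14, 9, 22 and 17 scanner units on control 1, control 2, OE 1 and OE 2. All lay far under the detection limit, so that the scaling rests on the signal of undetected spots. Adjusted intensities are not scaled and also differ with the brightness of the array. The ratio divides the mean of both scaled OE values by the mean of both scaled control values. Where 2 values of a group are given without the array, that of rat 1 comes before that of rat 2. A spot under the limit on every array of a group has no detected level in that group, and its ratio compares measured values near the background. With 2 rats per group, the precision of these ratios is limited.

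The arrays differed from each other before any comparison. The summed level of 11 leukocyte genes was 271, 29.6, 299 and 149 array medians on control 1, control 2, OE 1 and OE 2. On control 2 none of the 11 was detected, CD3 zeta, T-cell receptor gamma, CD8 and CD28 were at 0, and 10 of the 11 had their lowest level there. FABP4, which marks adipocytes, was detected on all 4 arrays. The summed level of 6 adipocyte genes was 268, 2256, 427 and 522 in the same order. FABP4 alone made up 252.3, 2114.8, 400.5 and 500.7 of these sums, so that they are mostly the level of this gene. On control 2, 4 of the 6 were detected and leptin was at 0. The summed level of 2 mesothelial genes was 3.50, 49.2, 5.95 and 4.88. Of 5 intestinal genes 4 were detected on OE 2 and none on another array, with summed levels of 1.93, 1.44, 3.14 and 273. None of 6 pancreatic genes was detected on any array. The part of these cell types in the results below was not tested beyond the values without each array. In a piece of tissue, fewer cells of a type and less RNA per cell cannot be told apart.

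Of the 33 members, 14 were detected on at least 1 array, which is 42.4% against 24.1% of all spots, and 8 on all 4 arrays, which is 24.2% against 8.44%. The 8 were cyclin D2, cyclin D3, CDC25B, PCNA, Max, RCL and both nucleoside diphosphate kinases. Control 1 had 11 members over the limit (12.8% of all spots), control 2 had 9 (15% of all spots), OE 1 had 13 (20.8%) and OE 2 had 9 (14.9%). With the arrays brought to the same brightness the counts were 11, 9, 11 and 10. The values nearest the limit on OE 1 were 125 for CDC20, just inside it, and 120 for cyclin G, just outside. On control 1 the value nearest the limit was 124 for cyclin D1, and on OE 2 it was 114 for the same gene.

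**Figure D1:**
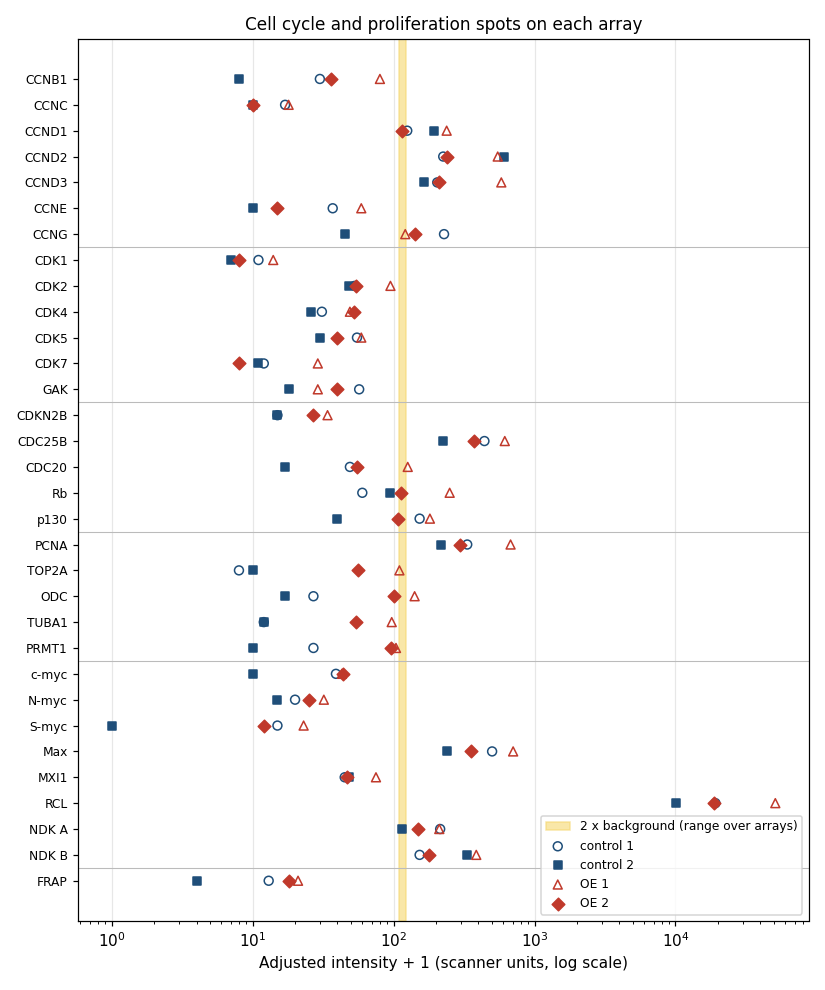
Adjusted intensity plus 1 of 32 members on each of the 4 arrays, in scanner units on a log axis, with 1 row per member and the members ordered by role. The shaded band spans the detection limits of the 4 arrays. RCL lies between 10031 and 51069 on all 4 arrays, and PCNA, Max and CDC25B also lie above the band on every array.

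All 33 members passed the filter of 922 genes, and 32 lay above its floor on all 4 arrays. The ratio was over 1.5 for 8 of them, against 18.9% of all genes tested, and under 0.5 for 1, against 18.3%. Among the 8 were TOP2A, TUBA1, PRMT1, ODC, cyclin B1, CDC20 and FRAP, and the 1 was cyclin D2. Without the 4 spots given by code, 4 of 29 were over 1.5. Of the 8, only ODC and CDC20 were detected on any array, each on OE 1 alone. Both OE values lay above both control values for 5 members, against 14.1% of all genes, and below both for 4, against 15.8%. The 5 were the 4 spots given by code, selected as high on the OE arrays, and FRAP. The median log2 ratio was -0.05 over the members and -0.16 over all genes tested. By role, the median log2 ratio was -0.62 for the 7 cyclins, -0.37 for the 6 kinases and 0.27 for the 6 switches and brakes. It was -0.14 for the 8 genes of the Myc network and 1.85 for the 5 effectors of DNA and growth. Of the effectors, 4 were the spots given by code. The median of the cyclins was the value of cyclin G, whose ratio was 0.422 against control 1 and 1.40 against control 2. No kinase was detected on any array.

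limma (lmFit and eBayes, Benjamini-Hochberg adjustment over 922 genes) called 0 members and 0% of all genes at an adjusted p under 0.05. The smallest of the adjusted p-values was 0.957. Before adjustment, 19 genes (2.06%) had a p under 0.05. Coded spots among these, selected with their values known, are not counted as results.

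The spots given by code are effectors of growing cells. TOP2A is DNA topoisomerase II alpha, which untangles sister chromatids and is made in dividing cells. Its adjusted intensity was 7 on control 1 and 9 on control 2, and it was 109 on OE 1 and 55 on OE 2. Both OE values lay above both controls and all 4 lay under the detection limit. In array medians the means were 0.750 ± 0.354 (SD, n = 2) for the control rats and 4.09 ± 1.22 (SD, n = 2) for the OE rats, a ratio of 5.46. It was 8.19 against control 1 alone and 4.09 against control 2 alone.

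ODC, ornithine decarboxylase, makes putrescine, the starting compound of the polyamines that growing cells need. Its adjusted intensity was 26 and 16 in the control rats against 140 and 99 in the OE rats, of which only that of OE 1 was detected. The replicates lay close together after scaling, with 1.82 ± 0.0561 array medians (SD, n = 2) for the control rats and 6.09 ± 0.382 (SD, n = 2) for the OE rats. The ratio was 3.35, with 3.28 against control 1 and 3.43 against control 2.

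TUBA1, an alpha-tubulin of the microtubules, had adjusted intensities of 11 in each control rat and of 96 and 53 in the OE rats, none of them detected. The scaled means were 1.00 ± 0.309 and 3.74 ± 0.881 array medians (SD, n = 2 each), a ratio of 3.73. Alpha-tubulins are a family of near-identical coding sequences, so that signal of another member in this spot cannot be told apart. PRMT1, which methylates arginines of histones and of RNA-binding proteins, had 26 and 9 in the control rats against 103 and 95 in the OE rats, again none of them detected. Its ratio was 3.59, with 2.77 against control 1 and 5.14 against control 2.

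Over the scalings, background corrections, floors and left-out arrays, the ratios of the coded spots, which their selection had fixed on the high side, lay between 1.86 and 10.3 for TOP2A, 1.97 and 5.69 for ODC, 1.68 and 6.77 for TUBA1 and 1.84 and 5.66 for PRMT1. For each of the 4 the lowest value came without background subtraction and the highest without scaling between arrays. Of the 3 spots next to PRMT1 by code, CART had adjusted intensities of 1, 0, 22 and 9 on control 1, control 2, OE 1 and OE 2. JNK3 had 3, 0, 15 and 9, and the prostaglandin F2 receptor regulatory protein had 18, 102, 42 and 25. The ratios of these spots were 3.25, 2.57 and 0.268, all from values under the detection limit. Next to TOP2A by code, plakoglobin had 38, 24, 64 and 88, TLP1 had 3, 5, 9 and 18, and G protein coupled receptor 19 had 1, 0, 0 and 11. The ODC spot lies by code between TUBA1 and the far brighter beta-actin, which had 9999, 10054, 16335 and 12090. On its other side TUBA1 is next to GAPDH, with 211, 362, 732 and 467. The ratio was 0.794 for beta-actin and 1.10 for GAPDH. The part of neighbouring spots and of the cell types was not tested.

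The promoters of 3 of these genes and of RCL, the brightest member, are printed because TOP2A, ODC and PRMT1 are among the 4 members with the highest ratios and RCL has the highest intensity. They are the 250 bases before the transcription start, 5′ to 3′ on the strand of the gene, from RefSeq on build GRCr8. The capitals mark CCAAT (the CCAAT box), GGGCGG (the GC box), CACGTG (the E-box) and the E2F-type letters TTTGGCGC, TTTCGCGC, TTTCCCGC and TTTGGCGG, each searched on both strands, so that a capital ATTGG or CCGCCC is the same motif read on the other strand. Top2a lies on the minus strand at chr10:84473094-84473343, Odc1 on the plus strand at chr6:46058415-46058664, Prmt1 on the minus strand at chr1:104604546-104604795, and Dnph1, the gene of RCL, on the minus strand at chr9:21981632-21981881.
TOP2A: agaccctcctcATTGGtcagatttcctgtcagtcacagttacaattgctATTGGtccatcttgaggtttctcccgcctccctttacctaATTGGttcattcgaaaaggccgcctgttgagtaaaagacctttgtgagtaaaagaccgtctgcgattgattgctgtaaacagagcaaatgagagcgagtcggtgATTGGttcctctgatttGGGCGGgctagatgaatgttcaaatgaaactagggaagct
ODC: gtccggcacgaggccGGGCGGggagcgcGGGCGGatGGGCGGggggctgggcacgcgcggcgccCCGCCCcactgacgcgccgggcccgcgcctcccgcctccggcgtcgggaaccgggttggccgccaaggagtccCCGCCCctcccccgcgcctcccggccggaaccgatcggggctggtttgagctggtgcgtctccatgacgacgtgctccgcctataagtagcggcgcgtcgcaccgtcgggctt
PRMT1: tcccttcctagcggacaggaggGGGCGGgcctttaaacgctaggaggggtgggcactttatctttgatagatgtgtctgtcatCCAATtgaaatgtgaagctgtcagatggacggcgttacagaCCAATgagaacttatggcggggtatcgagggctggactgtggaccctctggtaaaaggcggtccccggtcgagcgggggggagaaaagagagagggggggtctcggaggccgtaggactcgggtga
RCL: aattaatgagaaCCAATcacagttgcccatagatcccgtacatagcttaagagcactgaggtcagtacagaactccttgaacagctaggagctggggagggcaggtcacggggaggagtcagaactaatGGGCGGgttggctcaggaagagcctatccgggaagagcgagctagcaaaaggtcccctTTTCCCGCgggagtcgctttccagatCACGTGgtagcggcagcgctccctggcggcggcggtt

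The TOP2A promoter held 4 CCAAT matches, which began at -239, -201, -161 and -57 from the start, and 1 GGGCGG. That of ODC held 5 GGGCGG and no CCAAT, and that of PRMT1 held 2 CCAAT, at -167 and -126, and 1 GGGCGG. The RCL promoter held 1 of each, with the E2F-type match at -63 and CACGTG at -37. Promoters were read for 27 of the 33 members. CCAAT was found in 13 of the 27 (48.1%), against 34.2% of the 27457 genes in the table. An E2F-type match was found in 3, CDK1, RCL and NDK A (11.1%, against 1.86%). CACGTG was found in 5 (18.5%, against 5.77%), GGGCGG in 24 (88.9%, against 32.3%) and TATAAA in none (against 13.1%). The table includes predicted genes, and these matches are a description of the letters only.

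PCNA, the clamp that holds DNA polymerase on its template, was detected on all 4 arrays. Its adjusted intensity was 332 on control 1 and 217 on control 2, and it was 675 on OE 1 and 294 on OE 2. In array medians this was 23.7 and 24.1 in the control rats against 30.7 and 17.3 in the OE rats, so that the OE values lay on both sides of the controls. The ratio was 1.00. It was 1.28 without OE 2 and 0.723 without OE 1. The ratio of TOP2A, which also acts on replicating DNA, was high by selection and came from undetected values, so that no contrast with PCNA is drawn.

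The D-type cyclins bind CDK4 and CDK6 and carry growth signals into the cycle. Cyclin D2 had the lowest ratio of the members, 0.464. Its adjusted intensity was 224 on control 1 and 610 on control 2, and it was 547 on OE 1 and 238 on OE 2, all detected. After scaling control 2 stood alone at 67.8 array medians, above the 16 of control 1 and the 24.9 and 14 of the OE rats. Without control 2 the ratio was 1.21, so that its direction turned with that array.

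Cyclin D1 was similar, with 124 and 191 in the control rats against 237 and 114 in the OE rats. Its ratio was 0.581, and it was 0.987 without control 2. Cyclin D3 had 203 and 164 in the control rats against 580 and 209 in the OE rats, a ratio of 1.18 that became 0.751 without OE 1. None of the 3 D-type cyclins had groups that did not overlap.

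Among the other cyclins, cyclin G was detected on control 1 at 227 and on OE 2 at 140, with 44 on control 2 and 120 on OE 1. The controls differed by more than the groups, and the ratio of 0.649 was 0.422 against control 1 and 1.40 against control 2. Cyclin B1, the mitotic partner of CDK1, had 29 and 7 in the control rats against 79 and 35 in the OE rats, a ratio of 1.98. After scaling its groups overlapped, and the ratio was 1.36 against control 1 and 3.63 against control 2. Cyclin E, which works with CDK2 at the start of DNA synthesis, had 36, 9, 58 and 14 on control 1, control 2, OE 1 and OE 2, and its ratio of 0.969 was 0.673 against control 1 and 1.73 against control 2. Cyclin C, a part of the Mediator complex, had 16, 9, 17 and 9 in the same order, and after scaling both OE values lay below both controls. These last 3 cyclins were not detected on any array.

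No cyclin-dependent kinase among the members was detected on any array, nor was GAK, a kinase named for its binding to cyclin G. Their highest adjusted intensity was 94, for CDK2 on OE 1, and their ratios lay between 0.606 for GAK, which was 0.944 against control 2, and 1.05 for CDK4. CDK1, the kinase of mitosis, had 10, 6, 13 and 7 on control 1, control 2, OE 1 and OE 2, near 0 on every array. CDK4, the partner of the D-type cyclins, had 30, 25, 48 and 51, and CDK2, which drives DNA synthesis, had 52, 47, 94 and 53. CDK7, which activates the other kinases, had 11, 10, 28 and 7. All of these lay within 2-fold between the group means. CDK5 had 54, 29, 58 and 39 and GAK had 56, 17, 28 and 39. After scaling both OE values of CDK1 and of CDK5, a kinase best known from neurons, lay below both controls, with ratios of 0.726 and 0.696. The members below both controls, cyclin C, CDK1, CDK5 and NDK A, were 4 here, against 15.8% of all genes. They were 0 without scaling between arrays, against 3.35% of all genes, and 17 after scaling to the housekeeping spots, against 45.3%, since these scalings shift all genes. ODC and TUBA1, selected as high on the OE arrays, are among the 9 housekeeping spots and so enter that scaling.

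Of the switches and brakes of the cycle, CDC25B, the phosphatase that activates cyclin-dependent kinases, was detected on all 4 arrays. Its adjusted intensity was 440 on control 1 and 224 on control 2, and it was 614 on OE 1 and 374 on OE 2. After scaling the groups overlapped, with 28.2 ± 4.62 array medians (SD, n = 2) for the control rats and 25.0 ± 4.18 (SD, n = 2) for the OE rats, and the ratio of 0.886 lay within this spread.

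CDC20, which starts the separation of the chromosomes by activating the anaphase-promoting complex, had 48 and 16 in the control rats against 125 and 54 in the OE rats. Only the value of OE 1 was detected. Its ratio was 1.70, with 1.29 against control 1 and 2.49 against control 2, but the groups overlapped, and it was 0.945 after scaling to the housekeeping spots. The spots of CDC20, cyclin B1 and CDC25B lie next to RCL by code. CDC20 amounted to 0.250%, 0.160%, 0.245% and 0.289% of the intensity of RCL on control 1, control 2, OE 1 and OE 2, and cyclin B1 to 0.151%, 0.0698%, 0.155% and 0.187%. CDC25B amounted to 2.29%, 2.23%, 1.20% and 2.00%. The part of RCL in these spots was not tested.

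Rb, the retinoblastoma protein, holds E2F factors inactive. It was detected on OE 1 only, at 249, with 59 and 94 on the controls and 112 on OE 2. Its relative p130 had 152, 39, 180 and 106 on control 1, control 2, OE 1 and OE 2 and was detected on control 1 and OE 1. The ratios were 1.22 for Rb and 0.949 for p130, and both genes had overlapping groups. Against control 1 and control 2 alone the ratio was 2.12 and 0.857 for Rb, and 0.664 and 1.66 for p130. The controls opposed each other in this pair of genes, since Rb was 4.21 array medians on control 1 and 10.4 on control 2, and p130 was 10.9 and 4.33.

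CDKN2B, an inhibitor of CDK4, had 14 on both controls and 33 and 26 on the OE arrays, a ratio of 1.19 with no value detected. After scaling its groups overlapped, and the ratio was 1.51 against control 1 and 0.974 against control 2.

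**Figure D2:**
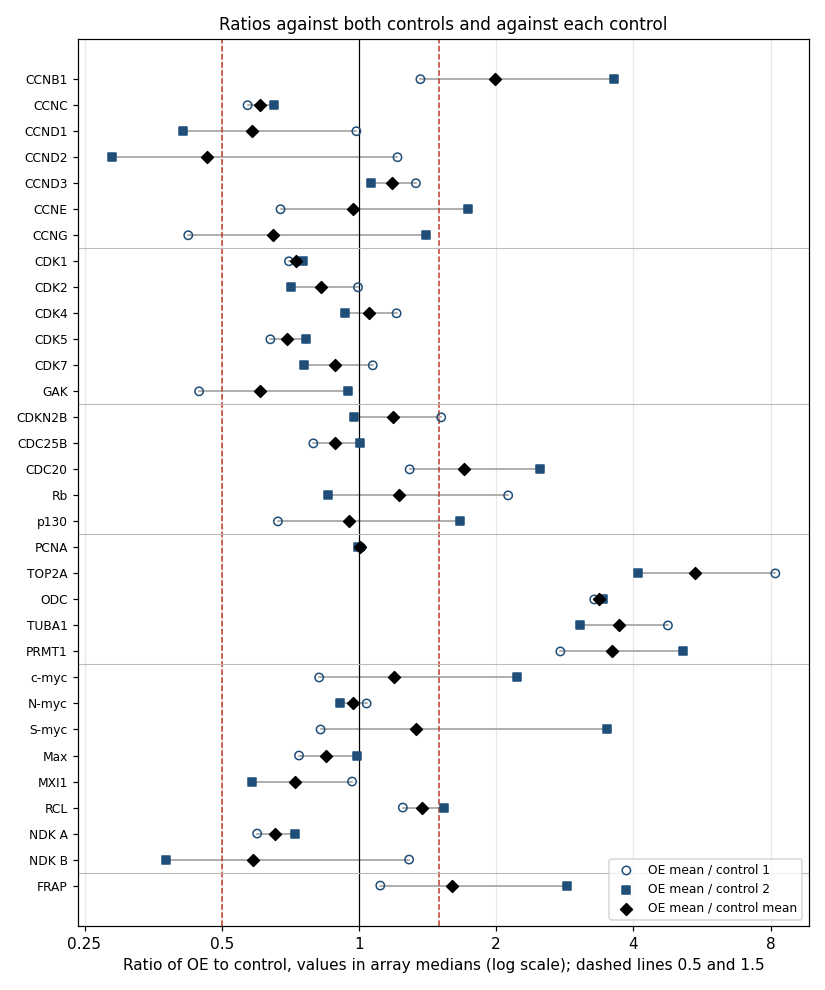
Ratio of the OE mean to control for 32 members, in values scaled to array medians, on a log axis. Diamonds use both controls, open circles control 1 alone and squares control 2 alone, and the dashed lines mark 0.5 and 1.5. TOP2A, ODC, TUBA1 and PRMT1 lie over 1.5 with either control, whereas cyclin D2 lies at 1.21 with control 1 and at 0.287 with control 2.

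Myc proteins bind DNA together with Max and turn on growth genes, and MXI1 competes with them for Max. None of the 3 Myc spots was detected. c-myc had 38 and 9 in the control rats against 42 and 43 in the OE rats, with a ratio of 1.19 that was 0.818 against control 1 and 2.22 against control 2. N-myc had 19, 14, 31 and 24 on control 1, control 2, OE 1 and OE 2, and S-myc had 14, 0, 22 and 11. MXI1 had 44, 47, 74 and 46 and was not detected either. Max was detected on all 4 arrays, with 499 and 239 in the control rats against 704 and 351 in the OE rats. Its ratio was 0.846 and its groups overlapped.

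RCL, a growth-related gene that responds to c-Myc and encodes an enzyme that cleaves deoxynucleotides, was the brightest of all 1185 spots on control 1 and on OE 1. Its adjusted intensity was 19197 on control 1 and 10031 on control 2, and it was 51069 on OE 1 and 18710 on OE 2. This was 11.1%, 5.00%, 13.2% and 8.38% of the summed intensity of each array, so that RCL enters any scaling to the total. The scaled mean was 1243 ± 181 array medians (SD, n = 2) for the control rats and 1711 ± 863 (SD, n = 2) for the OE rats, and OE 1 alone stood above the others. The ratio was 1.38, and it was 0.886 without OE 1.

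The nucleoside diphosphate kinases restore nucleoside triphosphates. NDK A had 213 and 113 in the control rats against 210 and 147 in the OE rats. After scaling both OE values lay below both controls, with 13.9 ± 1.88 and 9.10 ± 0.635 array medians (SD, n = 2 each) and a ratio of 0.655, though without scaling between arrays the ratio was 1.10. NDK B had 152, 333, 385 and 178 on control 1, control 2, OE 1 and OE 2, and its ratio of 0.584 was 1.29 without control 2. The name field of the NDK A spot gives both forms, and the 2 genes are near-identical in sequence, so that their signals are uncertain. FRAP, the kinase mTOR, had 12, 3, 20 and 17. After scaling both OE values lay above both controls with a ratio of 1.60, which was 1.11 against control 1 and 2.86 against control 2 and became 0.869 after scaling to the housekeeping spots, and no value was detected.

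**Figure D3:**
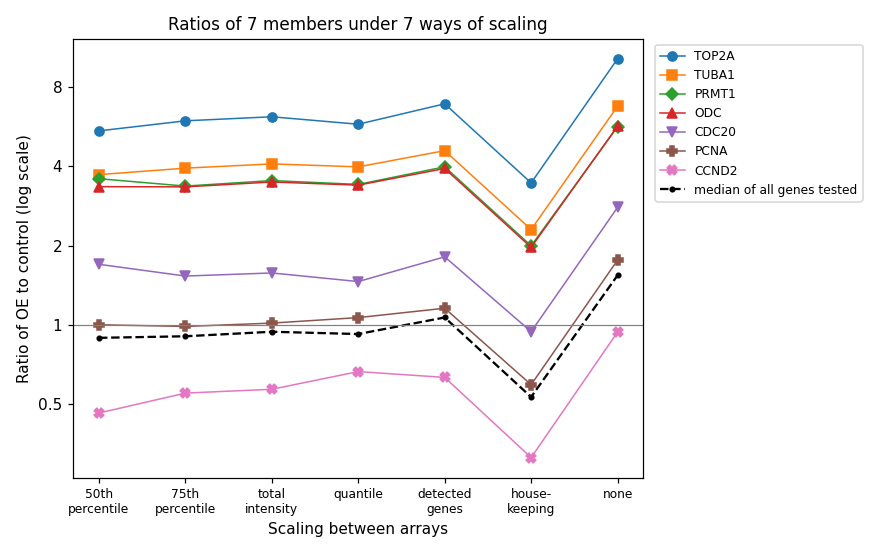
Ratio of OE to control, on a log axis, for TOP2A, TUBA1, PRMT1, ODC, CDC20, PCNA and CCND2 under 7 ways of scaling the arrays, with the median of all genes tested as a dashed line. The ratios shift together with that median, which is lowest after scaling to the housekeeping spots and highest without scaling, and CDC20 lies under 1 at 0.945 after scaling to the housekeeping spots. ODC and TUBA1 are among the housekeeping spots.

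The controls differed by over 2-fold for 13 members, against 57.6% of all genes tested, and the OE arrays for 5, against 22.5%. The lowest of the 4 scaled values was that of OE 2 for 17 members, against 25.3% of all genes, and the highest was that of OE 1 for 12, against 19.3%, and that of control 2 for 7, against 45.1%. The counts past the cutoffs depended on the array used. With control 2 alone as the control, 13 members were over 1.5 (29.2% of all genes) and 3 under 0.5 (28.7%). With control 1 alone, 7 were over 1.5 (32.4%) and 2 under 0.5 (8.79%). Without OE 2, the array with the intestinal transcripts, 12 were over 1.5 (20.5%) and 1 under 0.5 (16.4%), and without OE 1 there were 5 (19.4%) and 7 (25%).

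**Figure D4:**
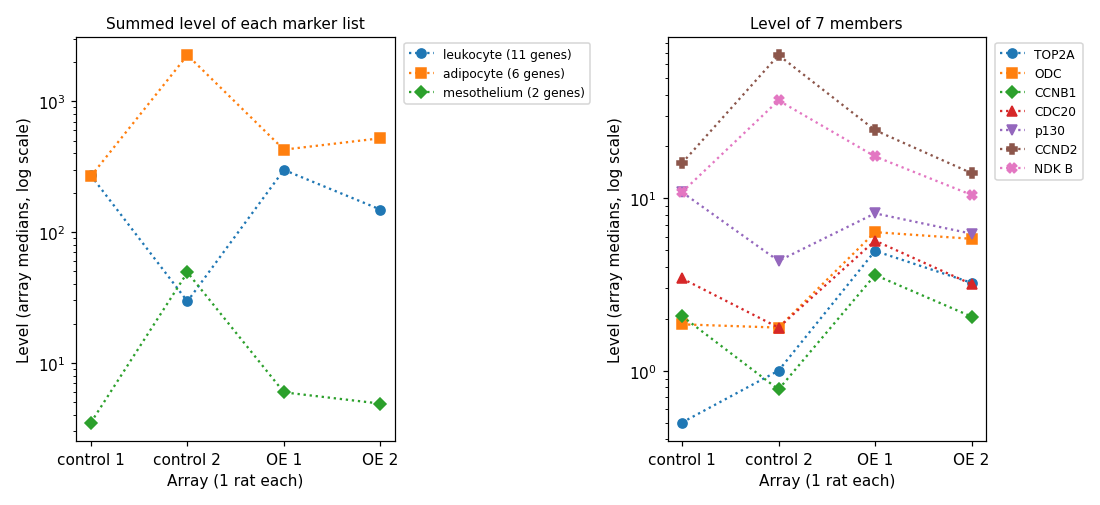
Left, the summed level of the leukocyte, adipocyte and mesothelial genes on each array. Right, the level of 7 members on the same arrays. Both axes are in array medians on log scales, and the dotted lines only join the values of 1 list or gene. On control 2 the leukocyte sum is 29.6 and the adipocyte sum 2256, of which FABP4 is 2114.8. Cyclin D2 and NDK B have their highest values there. TOP2A and ODC lie between 0.5 and 1.86 on the controls.

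Other genes of the same pathways, 32 in number, were read from a list of gene names. Of these, 30 passed the filter, 6 (20%) had a ratio over 1.5, against 18.9% of all genes tested, and 1 (3.33%) under 0.5, against 18.3%, and the median log2 ratio was 0.09. Both OE values lay above both controls for 6 (20%, against 14.1%) and below both for 3 (10%, against 15.8%). The DNA synthesis enzymes thymidylate synthase and thymidine kinase 1 were not detected on any array, with adjusted intensities of at most 10 and 20. Thymidylate synthase did not pass the filter. The ratio of thymidine kinase 1 was 0.539, and after scaling both OE values lay below both controls. HMG2, a chromatin protein abundant in dividing cells, had 205, 28, 590 and 551 on control 1, control 2, OE 1 and OE 2 and was detected on all but control 2. Its ratio was 3.34, with 2.02 against control 1 alone, and both OE values lay above both controls. BTG2, which restrains proliferation, had 135, 5, 439 and 228 and a ratio of 3.27, which was 1.73 against control 1 alone, also with both OE values above both controls. For both genes control 2, the array with the lowest leukocyte sum, was the lowest of the 4.

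The kinases ERK1 and ERK2, which carry growth signals to the nucleus, were detected on all 4 arrays. ERK1 had 235 and 777 in the control rats against 583 and 591 in the OE rats, a ratio of 0.594 that was 1.82 against control 1 and 0.355 against control 2. ERK2 had 250 and 289 in the control rats against 646 and 366 in the OE rats, a ratio of 1.02. The growth factor target c-jun had 73 and 228 in the control rats against 168 and 103 in the OE rats. Its ratio of 0.448 rested on control 2, since both OE values lay above control 1 after scaling, as they did for ERK1.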

How the data were processed

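RNA of mesenteric fat from 2 control and 2 OE rats, 1 rat per array, was measured on Atlas Rat Array 1.2 nylon filters. The authors deposited intensity values for 1185 spots (spot, background and background-adjusted intensity), as their image software wrote them and with no scaling between arrays. The 12 columns of a second array in the same files were not used. The series table carries no gene names and served only to check which columns belong to which array. Gene names and codes are those of the array files.

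Adjusted intensities were divided by the 50th percentile of each array, following the methods. Scaled values under 0.235 array medians, the 10th percentile of those over 0, were set to it. Genes over this floor in each rat of the control or of the OE group were kept, 922 in all. Cutoffs were 0.5 and 1.5. The GeneSpring 6.1 error model filter was not repeated. Groups were compared on the log2 scale by limma 3.58.1 (R 4.3.3), with no covariate. The code was also run on simulated data, where recovery of planted changes was required only at low noise. Its power at the spread of these rats is not given here, so that 0 calls do not show that no gene changed. The p-values of limma set each difference against a spread estimated from these rats only, 2 per group. eBayes draws the spread of each gene toward that of all genes tested. Members, gene lists and tests were chosen with earlier results of these data known. The text names members detected on at least 1 array, the 4 given by code and those past a cutoff whose groups did not overlap, and others where a role needs them; 1 member is counted but its own values are not reported here. From the names matched for the other pathway genes, 12 that mean another gene were removed. The alternatives were other scalings, floors, filters, background corrections (normexp with an offset of 50 among them) and cutoffs, geometric means, each array left out, a replicate block and an intensity trend.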

Additional observations from a re-analysis of the deposited data

How the results depend on the processing

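The deviations of arrays with the same number had a correlation of 0.0495 over 922 genes, and the numbers were not taken as pairs. With the replicate number as a block limma still called 0 members, with 17 of all genes at an unadjusted p under 0.05 in place of 19. Over all 18 alternative fits limma called 0 members and 0 genes at an adjusted p under 0.05. The smallest adjusted p lay between 0.171 and 0.999, with 1 to 258 genes at an unadjusted p under 0.05. Where 1 array was left out, the spread came from the other group alone.

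The count of 8 members over 1.5 was 4 after scaling to the housekeeping spots (5.14% of all genes), of which ODC and TUBA1 are 2 of 9, and 19 without scaling (50.7%). It was 5 at a ratio over 2 and 4 when all 4 pairs of arrays had to pass. The 4 that passed all pairs were the spots given by code, as were the 4 left with the housekeeping spots. Their selection had fixed these ratios on the high side, so that these counts lend the members no support. Among the 14 members detected on at least 1 array the count was 2 (14.3%, against 13.3% of all such genes). With 1 array left out it was 5 to 13. The lowest of these, 5, came without OE 1 (19.4% of all genes) and the highest, 13, without control 1 (27.1%). The 1 member under 0.5 became 0 with the 75th percentile (15.2% of all genes), the total intensity (14%) or geometric means (13.3%). It became 0 also with the genes detected on all 4 arrays (11.3%) or quantile normalization (15.9%). The count was again 0 with no scaling (3.04%), no background subtraction (0.88%), normexp (0.905%) or all 4 pairs. It was 11 with the housekeeping spots (45.2%) and 7 at a ratio under 1/1.5. With an array left out it was 3 without control 1 (31%), 2 without control 2 (11.9%), 7 without OE 1 (25%) and 1 without OE 2 (16.4%). For a ratio over 2, a ratio under 1/1.5 and all 4 pairs the share of all genes was not counted. The median log2 ratio of -0.05 became -0.79 with the housekeeping spots, where all genes moved from -0.16 to -0.91, and 0.74 without scaling, where all genes were at 0.63. With 1 array left out it lay between -0.36 and 0.11. The ratio of all 11 named members within the cutoffs crossed 1 under at least 1 alternative. Of the 7 named members past a cutoff, 3 did so, cyclin D2 without control 2 (1.21, against 0.287 without control 1) and, with the housekeeping spots, CDC20 (0.945) and FRAP (0.869). The crossings of CDC20 and FRAP rest on a scaling that includes the selected spots ODC and TUBA1. The number of members detected lay between 11 and 21 over other limits. The series table was not run as an alternative, because its rows carry no gene names.

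Since 19 of the 33 members stayed under 2 times the background on every array, their levels are known only as values near the background, and 2 rats per group leave the spread of each ratio poorly known.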
